A study of Mus musculus with 36 samples.

Results

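The smooth muscle contractile genes Acta1, Acta2, Actg2, Tagln, Tagln2, Cnn1, Cnn2, Myl9, Tpm1 and Tpm2 were followed across mouse embryonic stem cells (mESCs) grown on substrates of different stiffness. They were taken by name from a fixed list, and are 10 of the 49671 genes in the count table. Of these, 9 passed the filter on low counts and were tested, and Actg2 was not. All groups held mESCs of the strain label 129m wt, with no transgene or deletion named. Cells were grown on fibronectin-coated StemBond hydrogels, polyacrylamide gels in which matrix protein is tethered covalently, with a soft and a stiff version, or on tissue culture plastic. Both hydrogels were sampled at 24 h with LIF in the serum medium, and at 48 h in 4 media, which were serum alone, serum + LIF, serum + PD03 or all 3 together (serum + LIF + PD03). Plastic was sampled at 48 h in serum + LIF only. LIF is a cytokine that sustains self-renewal of mESCs through STAT3, and PD03 is the MEK inhibitor PD0325901, which blocks the ERK pathway. The 36 libraries fell into 11 groups, with 6 libraries for soft substrates in serum + PD03 and 3 for each of the other groups.

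Contractile cells generate force where myosin pulls on actin filaments. Alpha actins form the thin filament, tropomyosins lie along it, calponins and transgelins bind to it, and the regulatory light chain switches myosin on when it is phosphorylated. Many of these genes are targets of SRF, a transcription factor that binds the CArG box together with myocardin or with its relatives of the MRTF family, and MRTFs move to the nucleus when free actin monomers are used up in filaments. Adherent cells of many kinds express some of these genes without being muscle.

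The actins are encoded at chr8:123891769-123894751 (Acta1, minus strand), chr19:34241090-34255590 (Acta2, minus strand) and chr6:83512905-83536265 (Actg2, minus strand) of build GRCm38. The transgelins lie at chr9:45929619-45936058 (Tagln, minus strand) and chr1:172500047-172507380 (Tagln2, plus strand), and the calponins at chr9:22099216-22109630 (Cnn1, plus strand) and chr10:79988584-79996062 (Cnn2, plus strand). The light chain gene Myl9 lies at chr2:156775420-156781658 on the plus strand. The tropomyosins lie at chr9:67022590-67049406 (Tpm1, minus strand) and chr4:43514711-43523765 (Tpm2, minus strand). Of the 10 genes, 6 shared no run of 50 bases with a transcript of another gene. For Acta1, 2.02% of its runs of 50 bases were shared with other genes, Actb and Actg1 among them, for Acta2 0.326% (Actg1 among them) and for Tagln2 0.565%. Tagln differed from the rest in that the antisense gene Gm48529 covers 62.42% of its exon bases on the opposite strand and Pcsk7 covers 5.43%. The strand setting of the counting was not stated, so without strand the reads of Tagln and Gm48529 could not be told apart. Gm48529 had between 0.940 and 2.86 mean CPM (counts scaled to the size of the library) per group.

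Promoter windows of 300 bases, from 250 bases before to 50 bases after the start, were given by RefSeq (GRCm38.p6) for 8 of the 10 genes. Tagln and Actg2 had no window and were not searched. A CArG box was found in the windows of Acta1, Cnn2 and Myl9, against 1.63% of all 32851 windows. Boxes with 1 other base in the A and T core, searched after the windows had been seen, were found 2 times in Acta1, 2 times in Acta2 and 1 time in Myl9, against 8.499% of all windows with at least 1. The letters CATTCC, the core of the site bound by TEAD factors, were found on either strand in Acta1, Acta2, Tagln2 and Tpm1, against 14.7% of all windows. The windows of Cnn1 and Tpm2 held none of these. The boxes are shown in capitals, with each sequence read on the strand of its gene. Their part in the response to stiffness was not tested. The box of Acta1 (chr8:123894814-123894873, minus strand) begins 73 bases before the start, that of Cnn2 (chr10:79988519-79988578, plus strand) 56 bases and that of Myl9 (chr2:156775278-156775337, plus strand) 161 bases. The boxes of Acta2 with 1 other base (chr19:34255438-34255467 and chr19:34255388-34255417, minus strand) begin 84 and 34 bases before the RefSeq start and lie within the first exon of the GENCODE annotation.
Acta1: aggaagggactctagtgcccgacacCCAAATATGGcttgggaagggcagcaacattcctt
Cnn2: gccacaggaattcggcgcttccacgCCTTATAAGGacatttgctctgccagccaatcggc
Myl9: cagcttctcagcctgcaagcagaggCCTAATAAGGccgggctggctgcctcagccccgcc
Acta2, far: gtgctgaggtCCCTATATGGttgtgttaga
Acta2, near: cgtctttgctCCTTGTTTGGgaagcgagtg

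The libraries held 10405696 to 26635239 counts, and at 24 h the soft libraries were shallower (11124741 to 16539932) than the stiff ones (19857202 to 22530889). All libraries at 24 h and on plastic came from 1 sequencing pool. At 48 h, a second pool held all but 1 of the stiff libraries, and another held all but 2 of the soft ones, so substrate and pool nearly coincided there. Markers of embryonic stem cells (6 genes) summed to 2159 to 3863 CPM per library. Markers of smooth muscle (8 genes) summed to 72.9 to 122 CPM, most of it from Smtn with a median of 73.9 CPM, whereas the myosin heavy chain of smooth muscle, Myh11, had a median of 0.694 CPM and the coactivator Myocd 0.859 CPM. No marker gene was at 0 in every library. The libraries are bulk RNA, in which fewer expressing cells and less RNA per cell cannot be told apart.

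Levels were compared between the genes per kilobase of exon, taken as the union of all annotated exons. Averaged over the 36 libraries, Tagln2, a transgelin found in many cell types, had 89.0 CPM per kb and Cnn2, a calponin of non-muscle cells, 51.1 CPM per kb. Tpm1 followed with 36.4, but with its longest transcript (2.89 kb) in place of the union (6.49 kb) it lay above Cnn2 in each of the 11 groups, for example at 97.9 against 72.4 CPM per kb on stiff substrates at 24 h. Per kilobase of the union, Myl9 had 26.9, Acta2 24.6 and Tpm2 17.1 CPM per kb. The striated muscle actin Acta1 had 8.93, Tagln 6.42 and the smooth muscle calponin Cnn1 2.21 CPM per kb. Actg2, the gamma actin of enteric smooth muscle, was close to absent at 0.120 CPM per kb. It had 0 to 12 counts per library and 125 in all, with at least 1 count in 33 of the 36 libraries. Its highest group means were 0.395 ± 0.215 CPM (SD, n = 3) on stiff substrates in serum + PD03 and 0.375 ± 0.118 (n = 3) in serum + LIF + PD03, and none of its 11 group means was separated from the next in order by more than the sum of their SDs.

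**Figure D1:**
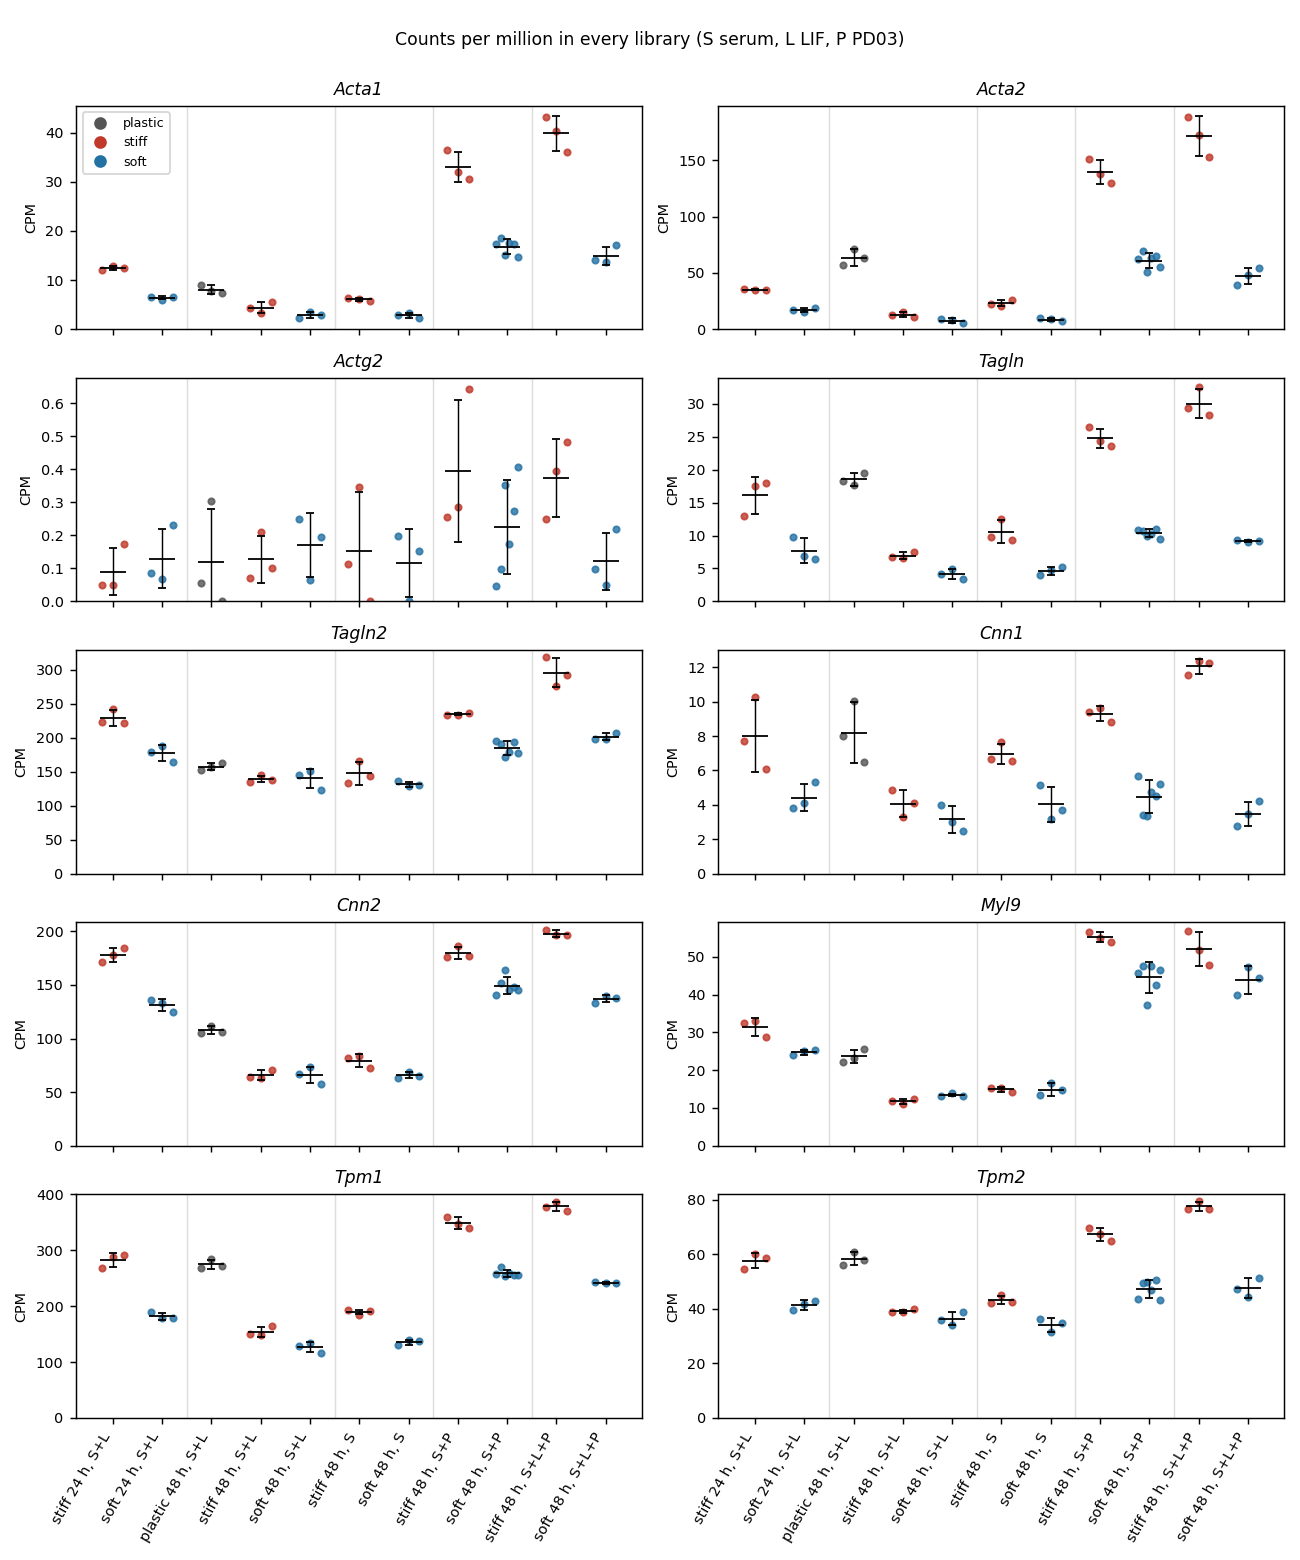
CPM (linear axes from 0) of the 10 genes in each of the 36 libraries, by group. Points are libraries (red stiff, blue soft, grey plastic), long ticks are group means and bars are SD. By group mean, a stiff group with PD03 is the highest for each of the 10 genes, and no library of Actg2 lies above 0.642 CPM.

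The first question was whether the genes followed the stiffness of the hydrogel after 24 h in serum + LIF, where all libraries shared a pool. All 9 tested genes were lower on soft than on stiff substrates (edgeR quasi-likelihood test, Benjamini-Hochberg adjusted p under 0.05), against 2.52% of all tested genes called lower. The log2 fold changes ran from -1.09 to -0.34 with a median of -0.64, beside a median of -0.0016 over all tested genes. The study had shown Acta1, Acta2, Tagln and Cnn1 as example genes from these samples, so their direction is not independent evidence. The labels do not say whether replicates were separate cultures, so p-values measure the spread between these libraries.

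Acta2, the alpha actin of smooth muscle, had 35.8, 34.9 and 35.3 CPM in the 3 stiff libraries at 24 h and 16.99, 15.03 and 18.6 CPM in the 3 soft ones. The groups did not overlap, and Acta2 was 2.09-fold lower on soft substrates (log2 -1.06 ± 0.13 SE, edgeR adjusted p = 2.7e-08). Acta1 had 12, 12.8 and 12.4 CPM on stiff and 6.62, 6.04 and 6.65 CPM on soft substrates, a difference of 1.93-fold (log2 -0.95 ± 0.14, adjusted p = 1.8e-06). Its libraries were likewise separate.

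Tagln, the actin-binding transgelin of smooth muscle, was 12.9, 17.4 and 17.96 CPM on stiff and 9.84, 6.86 and 6.42 CPM on soft substrates at 24 h. This was the largest of the 9 fold changes (2.13-fold lower, log2 -1.09 ± 0.13, edgeR adjusted p = 3.4e-08), and the antisense Gm48529 had means of 1.999 CPM (stiff) and 2.004 CPM (soft). Tagln2 differed by less, with a fall of 0.37 ± 0.06 on the log2 scale. Cnn1 was the least precise, at 7.70, 10.2 and 6.06 CPM on stiff and 3.83, 4.12 and 5.32 CPM on soft substrates (log2 -0.83 ± 0.20, adjusted p = 0.0066). Cnn2 fell by 0.44 ± 0.06, Tpm1, which had more reads than Tpm2, by 0.64 ± 0.05 and Tpm2 by 0.48 ± 0.07. The light chain Myl9 fell least, by 0.34 ± 0.09 (adjusted p = 0.011). The calls of Cnn1 and Myl9 each depended on single libraries. Without stiff library 2, Cnn1 had an adjusted p of 0.13 and Myl9 of 0.088. Cnn1 also missed the threshold without soft library 1 (0.0503) or 2 (0.0521), and Myl9 without stiff library 1 (0.068) or soft library 1 (0.062).

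Markers of fibroblasts moved with the same comparison. Their 10 genes summed to 58.8 to 65.4 CPM in the stiff and 29.4 to 41.8 CPM in the soft libraries at 24 h. Of the 8 tested, 1 was called lower, against 2.52% of all tested genes, and none higher. Col1a1, a fibrillar collagen chain with the highest level of the list (median 30.3 CPM), passed the test in all 5 comparisons of soft with stiff substrates (mean log2 -1.16), and Col1a2, its partner chain, in 3 (mean log2 -0.92). None of the 10 was at 0 in every library, and the other 6 tested markers passed in none of the comparisons. Among those 6, Dcn, Postn and Col3a1 had medians of 0.401, 0.640 and 0.715 CPM, where the counts limit what can be detected. Their mean log2 fold changes were -1.42, -0.79 and -0.71. Pdgfra, Pdgfrb and Thy1 had medians of 4.60, 4.59 and 7.22 CPM, with mean log2 fold changes of -0.09, -0.21 and -0.05. Of the 6 markers of embryonic stem cells, 4 were higher on soft substrates at 24 h, and at 48 h 0 were in serum + LIF, 4 in serum alone and 3 in either medium with PD03. The part of these markers in the results was not tested.

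At 48 h the number of genes called lower on soft than on stiff substrates differed between the media. Tested as an interaction in edgeR with LIF present, the difference between substrates depended on PD03 for 7 of 9 genes, against 0.949% of all tested genes. Without LIF, 0 of 9 passed for PD03, against 0.797%, and without PD03, 0 of 9 passed for LIF, against 0.0847%. In serum without LIF, 7 of the 9 genes were lower on soft substrates, against 2.77% of all tested genes. With PD03 in the medium all 9 were lower, against 3.42% without LIF and 4.82% with it. In serum + LIF, 3 of 9 were lower, Acta2, Tagln and Tpm1, against 0.333%. For 8 of the 9 genes, Myl9 excepted, the largest difference between the hydrogels was seen in serum + LIF + PD03. For Tpm1 this difference and that at 24 h lay within the SE of each other.

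In that medium, Acta2 reached 189, 173 and 153 CPM on stiff substrates and 39.7, 48.1 and 54.5 CPM on soft ones, which was 3.62-fold lower (log2 -1.86 ± 0.10, edgeR adjusted p = 1.3e-19). Cnn1 had 11.5, 12.3 and 12.3 CPM on stiff and 2.77, 3.44 and 4.20 CPM on soft substrates (log2 -1.80 ± 0.19, adjusted p = 4.2e-10). Every stiff library was well above every soft one for both genes. Tagln was 29.3, 32.4 and 28.2 CPM on stiff and 9.27, 8.97 and 9.15 CPM on soft substrates (log2 -1.71 ± 0.12, adjusted p = 6.3e-16). Acta1 fell by 1.42 ± 0.11 on the log2 scale, Tpm2 by 0.71 ± 0.06, Tpm1 by 0.65 ± 0.05, Tagln2 by 0.56 ± 0.06 and Cnn2 by 0.53 ± 0.06. Myl9 was again the least affected (log2 -0.25 ± 0.08, adjusted p = 0.032), and its call was lost without any 1 of 4 of the 6 libraries. Its adjusted p was 0.24 without stiff library 1, 0.078 without stiff library 2, 0.23 without soft library 1 and 0.071 without soft library 3. The fibroblast markers summed to 97.4 to 104 CPM on stiff and 39.0 to 54.9 CPM on soft substrates in this medium.

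In serum + PD03, the soft group of 6 libraries had 50.7 CPM of Acta2 at the lowest, 62.9 at the median and 69.6 at the highest, against 151, 138 and 130 CPM in the stiff libraries (log2 -1.20 ± 0.08, edgeR adjusted p = 1.9e-15). No soft library reached a stiff one. Tagln fell by 1.26 ± 0.10 on the log2 scale, Cnn1 by 1.03 ± 0.16, Acta1 by 0.98 ± 0.09 and Tpm2 by 0.51 ± 0.05. The other 4 fell by 0.27 to 0.43. The fibroblast markers summed to 79.0 to 91.2 CPM on stiff and 41.1 to 53.3 CPM on soft substrates.

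In serum alone, Acta2 had 22.6, 21.01 and 26.4 CPM on stiff and 9.92, 8.89 and 7.19 CPM on soft substrates (log2 -1.42 ± 0.14, edgeR adjusted p = 3.5e-10). Tagln fell by 1.17 ± 0.14, Acta1 by 1.08 ± 0.16, Cnn1 by 0.79 ± 0.20, Tpm1 by 0.48 ± 0.05, Tpm2 by 0.34 ± 0.07 and Cnn2 by 0.27 ± 0.06. Tagln2 was not separated (log2 -0.16 ± 0.06, adjusted p = 0.16) and passed the threshold only without stiff library 1 (0.042). Myl9 had nearly the same level on both, at 15.3, 15.3 and 14.2 CPM on stiff and 13.3, 16.6 and 14.7 CPM on soft substrates (log2 -0.01 ± 0.10, adjusted p = 0.98). Cnn1 missed the threshold without stiff library 2 (0.053) or soft library 2 (0.11) or 3 (0.0503), and Cnn2 without stiff library 2 (0.073). The fibroblast markers summed to 56.5 to 62.8 CPM on stiff and 31.5 to 37.05 CPM on soft substrates.

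With pool as a further term, over the 45 assignments of libraries to pools that the labels allow, the calls at 24 h stayed at 9. All libraries at 24 h shared a pool, so the term could not test that comparison. At 48 h they ranged from 8 to 9 in both media with PD03, where Myl9 was called under 18 assignments without LIF and 9 with it and Cnn2 under 38 without LIF, from 4 to 6 in serum and from 0 to 3 in serum + LIF. In serum, Acta1, Acta2, Tagln and Tpm1 were called under each of the 45 assignments, Tpm2 under 21, Cnn2 under 12 and Cnn1 under 9. In serum + LIF, Tpm1 was called under 8, Acta2 under 4 and Tagln under 0 of them.

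**Figure D2:**
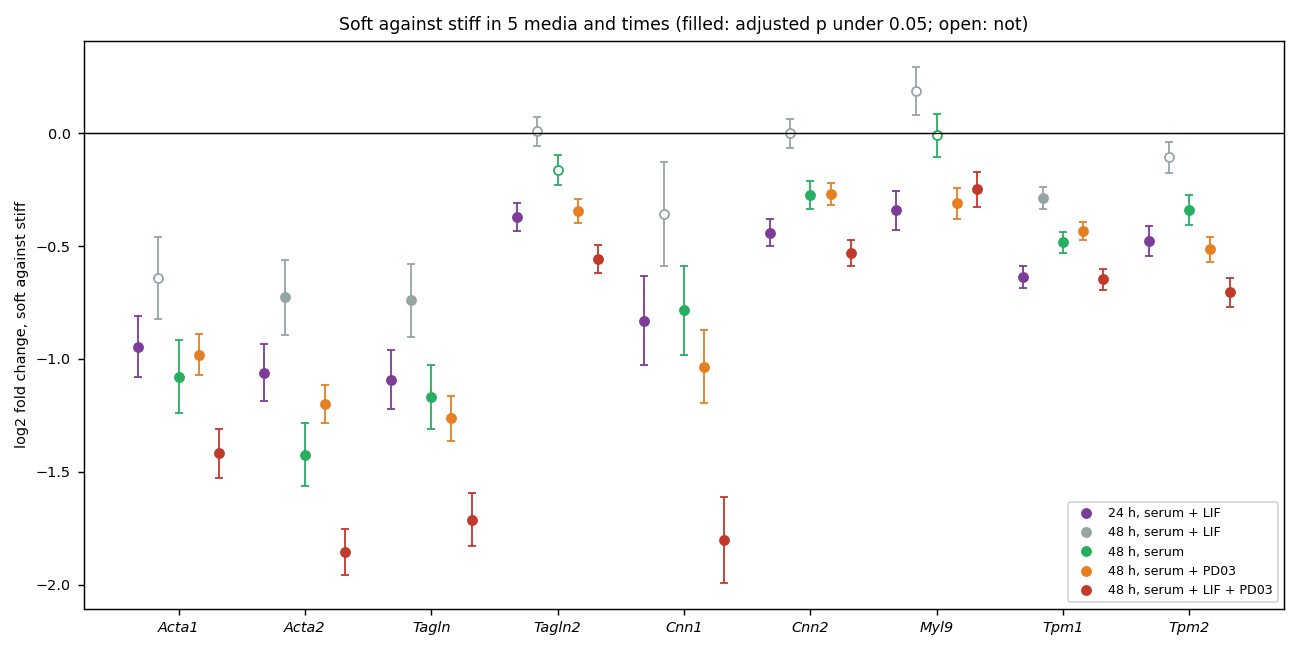
Log2 fold change of soft against stiff substrates (vertical axis) for the 9 tested genes, with bars of 1 SE from the edgeR fit, in 5 combinations of time and medium given by colour. Filled points passed an adjusted p of 0.05. Serum + LIF + PD03 lies lowest for 8 of the genes, for Tpm1 by less than the SE. Serum + LIF at 48 h lies highest for each, with Myl9 at 0.19.

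Tissue culture plastic was compared with both hydrogels in serum + LIF at 48 h. By group mean, 6 of the 10 genes took the order plastic, stiff, soft, namely Acta1, Acta2, Tagln, Cnn1, Tpm1 and Tpm2. Both steps passed the test for 3 of them, Acta2, Tagln and Tpm1. The first step passed for 8 genes, against 3.59% of all tested genes called lower on stiff substrates than on plastic, and soft substrates were lower than plastic for the same 8, against 6.47%. These comparisons share libraries, and each is given by its own values.

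Acta2 showed the widest range, with 56.7, 71.0 and 63.4 CPM on plastic, 12.3, 15.7 and 11.4 CPM on stiff and 9.59, 8.25 and 5.62 CPM on soft substrates. No 2 of the groups overlapped. Stiff hydrogels were 4.90-fold below plastic (log2 -2.29 ± 0.13, edgeR adjusted p = 6.8e-19), soft hydrogels 8.11-fold below plastic (log2 -3.02 ± 0.14), and soft 1.65-fold below stiff (log2 -0.73 ± 0.17, adjusted p = 0.016). The step from plastic to stiff was the larger of both, and the difference between the steps was not tested.

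Tagln had 18.3, 17.7 and 19.5 CPM on plastic, 6.68, 6.54 and 7.57 CPM on stiff and 4.14, 4.89 and 3.47 CPM on soft substrates. The steps were 2.65-fold (log2 -1.41 ± 0.13, edgeR adjusted p = 2.2e-11) and 1.67-fold (log2 -0.74 ± 0.16, adjusted p = 0.011). Tpm1 had 269, 284 and 272 CPM on plastic, 150, 148 and 164 CPM on stiff and 129, 133 and 116 CPM on soft substrates, with steps of 1.78-fold (log2 -0.83 ± 0.05) and 1.22-fold (log2 -0.29 ± 0.05, adjusted p = 0.0005). The second step depended on single libraries for all 3 genes. Without stiff library 3, the adjusted p was 0.16 for Tagln and 0.074 for Tpm1, and without stiff library 2 it was 0.14 for Acta2. Without soft library 3 it was 0.070 for Tagln and 0.11 for Acta2, and without soft library 1 it was 0.057 for Tagln.

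For the other genes in that order, soft and stiff substrates were not separated. Acta1 had 9.02, 7.81 and 7.39 CPM on plastic, 4.41, 3.27 and 5.63 CPM on stiff and 2.32, 3.49 and 2.88 CPM on soft substrates, so that the hydrogels overlapped (log2 -0.64 ± 0.18, edgeR adjusted p = 0.081, and 0.025 without stiff library 2). Cnn1 had 8.02, 10.05 and 6.49 CPM on plastic, 4.83, 3.27 and 4.09 on stiff and 4.01, 2.98 and 2.49 on soft substrates (log2 -0.36 ± 0.23, adjusted p = 0.59). The hydrogels overlapped for this gene too. Tpm2 had 56.0 to 60.8 CPM on plastic, 38.7 to 39.8 CPM on stiff and 34.04 to 38.8 CPM on soft substrates (log2 -0.11 ± 0.07, adjusted p = 0.60).

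Cnn2 and Myl9 were lower on both hydrogels than on plastic without an order between the hydrogels. Cnn2 had 105, 112 and 106 CPM on plastic, 63.8, 62.9 and 71.0 on stiff and 67.2, 73.2 and 57.6 on soft substrates (soft against stiff log2 -0.00066 ± 0.065, edgeR adjusted p = 0.999). Myl9 had 22.2, 23.2 and 25.5 CPM on plastic, 11.7, 11.1 and 12.5 on stiff and 13.2, 13.8 and 13.3 on soft substrates. All soft libraries lay above all stiff ones for Myl9, but the difference did not pass the test (log2 0.19 ± 0.11, adjusted p = 0.53). Tagln2 was the exception among the 9 genes, with 157 ± 5.003 CPM on plastic (SD, n = 3), 139 ± 5.02 on stiff and 140 ± 14.5 on soft substrates. It passed the test against plastic on neither hydrogel (log2 -0.17 ± 0.07 on both, adjusted p = 0.12 and 0.089), and soft against plastic passed only without soft library 2 (0.048). The summed fibroblast markers lay at 77.9 to 89.8 CPM on plastic, 41.9 to 49.7 on stiff and 35.1 to 39.4 on soft substrates. Their members went both ways against plastic, with 3 of the 8 tested called lower and 2 higher on either hydrogel.

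With the pool term, 6 to 8 genes were called lower on stiff substrates than on plastic and 4 to 8 on soft substrates, and both steps held for 0 to 3 genes. Acta2, Tagln and Tpm1 were called lower than on plastic on both hydrogels under each of the 45 assignments.

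**Figure D3:**
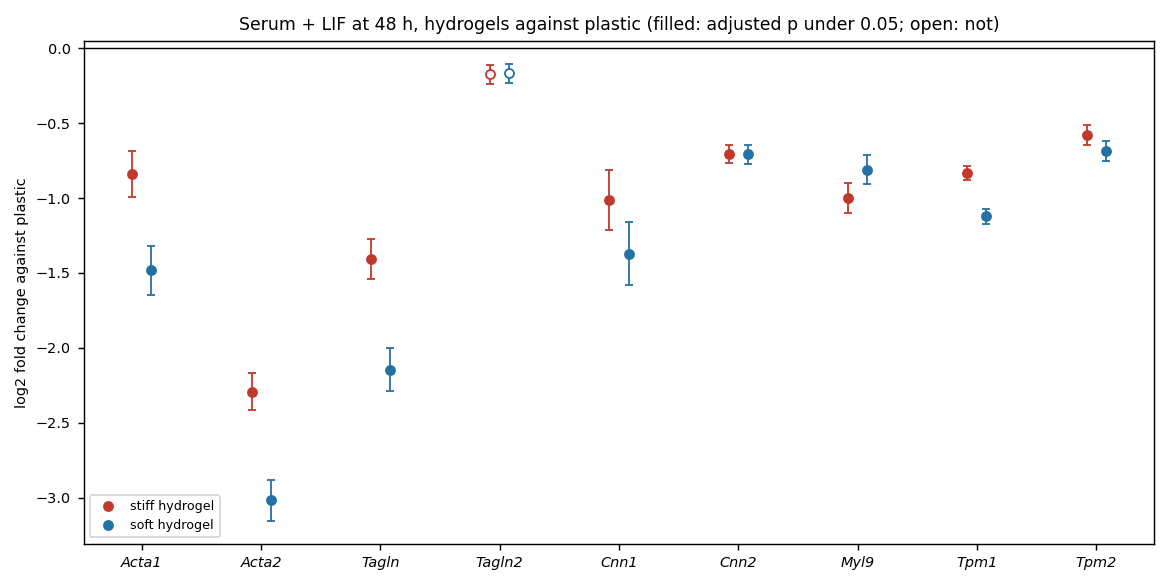
Log2 fold change of the stiff (red) and soft (blue) hydrogel against plastic (vertical axis) for the 9 tested genes in serum + LIF at 48 h, with bars of 1 SE. Filled points passed an adjusted p of 0.05. Acta2 falls the furthest, to -2.29 and -3.02, and Tagln2 stays at -0.17 on both.

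PD03 was added to ask how MEK inhibition alters the cells on each substrate. It raised the contractile genes on both hydrogels, with or without LIF. In serum + LIF, 8 of 9 genes were higher with PD03 on soft substrates, against 27.8% of all tested genes called higher, and 9 of 9 on stiff substrates, against 28.3%. In serum without LIF, 8 of 9 were higher on soft, against 29%, and 9 of 9 on stiff substrates, against 28.4%. The gene missing on soft substrates was Cnn1 in both media.

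Acta2 changed most. On stiff substrates with LIF it rose from 12.3, 15.7 and 11.4 CPM to 189, 173 and 153 CPM, which was 13.2-fold (log2 3.72 ± 0.12, edgeR adjusted p = 5.9e-31), and on soft substrates from 9.59, 8.25 and 5.62 CPM to 39.7, 48.1 and 54.5 CPM, or 6.03-fold (log2 2.59 ± 0.14). Without LIF the rise was 5.99-fold on stiff (log2 2.58 ± 0.11) and 6.99-fold on soft substrates (log2 2.81 ± 0.12). Acta1 rose 8.79-fold on stiff and 5.14-fold on soft substrates with LIF, and 5.34-fold and 5.71-fold without it. On the stiff hydrogel with PD03, every library of both actins lay above every library on plastic.

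Myl9, the regulatory light chain, was among the genes with the largest rises. With LIF it rose from 11.7, 11.1 and 12.5 CPM to 56.9, 51.7 and 47.9 CPM on stiff substrates (4.41-fold, log2 2.14 ± 0.09, edgeR adjusted p = 4.0e-26) and from 13.2, 13.8 and 13.3 CPM to 39.8, 47.3 and 44.4 CPM on soft ones (3.26-fold, log2 1.70 ± 0.09). Without LIF it rose 3.68-fold on stiff and 2.99-fold on soft substrates. Tagln rose 4.29-fold on stiff and 2.19-fold on soft substrates with LIF, and 2.36-fold and 2.21-fold without it. Cnn2 rose 3.00-fold and 2.07-fold with LIF and 2.27-fold on both without it. The rises of Tpm1 ranged from 1.84-fold to 2.45-fold, those of Tagln2 from 1.40-fold to 2.12-fold and those of Tpm2 from 1.31-fold to 1.98-fold.

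With LIF and on stiff substrates, PD03 raised Cnn1 from 4.83, 3.27 and 4.09 CPM to 11.5, 12.3 and 12.3 CPM (log2 1.57 ± 0.19, edgeR adjusted p = 7.8e-10). On soft substrates it went from 4.01, 2.98 and 2.49 CPM to 2.77, 3.44 and 4.20 CPM, and the groups overlapped (log2 0.12 ± 0.23, adjusted p = 0.68). Without LIF its rise was small on stiff substrates (log2 0.42 ± 0.18, adjusted p = 0.043) and was not called on soft ones (log2 0.18 ± 0.18, adjusted p = 0.42). The call on stiff substrates was lost without stiff library 1 (0.13) or 3 (0.11) in serum and without stiff library 1 (0.077) or 2 (0.11) in serum + PD03, and DESeq2 did not make it.

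Markers of primitive endoderm summed to 42.0 to 63.8 CPM without PD03 and to 78.9 to 136 CPM with it. Most of these 6 genes did not share this direction, since 1 to 2 were called higher and 2 to 3 lower with PD03, depending on the substrate and on LIF. Of the fibroblast markers, 4 of the 8 tested were called higher and 2 to 3 lower with PD03 on stiff substrates, where the sum went from 41.9 to 49.7 CPM to 97.4 to 104 CPM with LIF and from 56.5 to 62.8 CPM to 79.0 to 91.2 CPM without it. On soft substrates, 3 to 4 were called higher and 2 lower, and the sum went from 35.1 to 39.4 CPM to 39.0 to 54.9 CPM with LIF and from 31.5 to 37.05 CPM to 41.1 to 53.3 CPM without it. Early mesoderm markers summed to 11.2 to 20.4 CPM without and 4.07 to 5.56 CPM with PD03. Of all tested genes, 27.8% to 29% were called higher with PD03, and the share called lower is not given here. The part of these markers in the results was not tested.

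**Figure D4:**
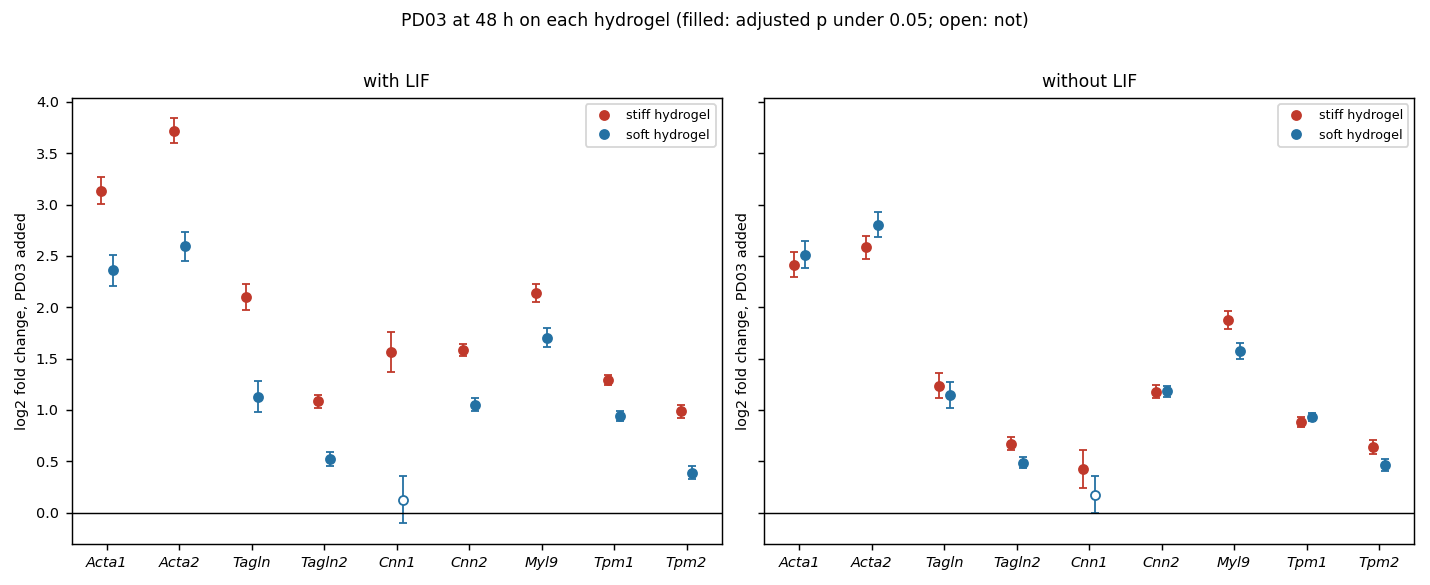
Log2 fold change on adding PD03 at 48 h (vertical axis) for the 9 tested genes on stiff (red) and soft (blue) hydrogels, with LIF on the left and without it on the right, with bars of 1 SE. Filled points passed an adjusted p of 0.05. With LIF, each stiff point lies above its soft point, while without LIF the 2 lie closer together.

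Whether the response to PD03 itself differed between hydrogels was tested as an interaction. With LIF, the rise was smaller on soft substrates for 7 of 9 genes, against 0.949% of all tested genes. Cnn1 had the largest interaction (log2 -1.44 ± 0.30, edgeR adjusted p = 0.004), followed by Acta2 (-1.13 ± 0.20, 0.0003), Tagln (-0.97 ± 0.20, 0.0039), Tpm2 (-0.60 ± 0.09, 4.3e-05), Tagln2 (-0.56 ± 0.09, 7.3e-05), Cnn2 (-0.53 ± 0.09, 0.00011) and Tpm1 (-0.36 ± 0.07, 0.00095). Acta1 and Myl9 did not pass the threshold. The call of Tagln was lost without soft library 2 in serum + LIF (0.061). These 7 held under each of the 45 pool assignments. The soft groups shared a pool, and the stiff groups did so but for 1 library, so the term tested these calls only weakly. Without LIF, 0 of 9 passed in edgeR, against 0.797% of all tested genes, with 2 at an unadjusted p under 0.05 and 0 in DESeq2.

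Added to serum on stiff substrates, LIF lowered 5 of 9 genes, against 0.695% of all tested genes. Acta2 went from 22.6, 21.01 and 26.4 CPM to 12.3, 15.7 and 11.4 CPM (log2 -0.84 ± 0.14, edgeR adjusted p = 8.8e-05). Cnn1 fell by 0.77 ± 0.20, Tagln by 0.59 ± 0.14, Tpm1 by 0.30 ± 0.05 and Cnn2 by 0.27 ± 0.06. The calls of Acta2 and Tpm1 held without any 1 library and under each pool assignment. Those of Cnn1, Cnn2 and Tagln did not, and their adjusted p rose to at most 0.19, 0.16 and 0.16 with 1 library left out, without stiff library 2 in serum + LIF for Cnn1 and without stiff library 2 in serum for the others. On soft substrates, 0 of 9 genes changed with LIF in edgeR, against 0.0169%, with 1 at an unadjusted p under 0.05 and 0 in DESeq2. The difference between substrates in the effect of LIF was tested, and 0 of 9 genes passed in edgeR, against 0.0847%, with 4 at an unadjusted p under 0.05 and 1 in DESeq2.

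In the presence of PD03 and on stiff substrates, 1 of 9 genes passed with LIF, and 8 had an unadjusted p under 0.05. A fit of the compared groups alone called 6. Tagln2 rose from 235 ± 1.59 to 296 ± 21.8 CPM (SD, n = 3, log2 0.33 ± 0.06, edgeR adjusted p = 0.0024), against 0.294% of all tested genes. The call was lost without stiff library 1 in serum + LIF + PD03 (0.10). On soft substrates 0 of 9 genes changed in edgeR, against 0.107%, with 5 at an unadjusted p under 0.05 and 0 in DESeq2.

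From 24 h to 48 h in serum + LIF, the genes fell on both hydrogels. On stiff substrates all 9 were lower at 48 h, against 13% of all tested genes, and on soft substrates 8 were, against 11.4%. Cnn2 on stiff substrates went from 172, 178 and 185 CPM to 63.8, 62.9 and 71.0 CPM (log2 -1.43 ± 0.06, edgeR adjusted p = 2.2e-23), and on soft ones from 136, 133 and 125 CPM to 67.2, 73.2 and 57.6 CPM (log2 -0.99 ± 0.06). Acta1 fell by 1.45 ± 0.14 on stiff and 1.15 ± 0.17 on soft substrates, Acta2 by 1.44 ± 0.13 and 1.11 ± 0.16, Myl9 by 1.41 ± 0.09 and 0.88 ± 0.10, and Tagln by 1.21 ± 0.13 and 0.86 ± 0.16. The tropomyosins and Tagln2 fell less, by 0.56 to 0.88 on stiff and by 0.19 to 0.53 on soft substrates. Cnn1 fell by 0.97 ± 0.20 on stiff substrates and was not called on soft ones (log2 -0.50 ± 0.23, adjusted p = 0.11, and 0.047 without soft library 1 at 48 h). The call of Tpm2 on soft substrates (adjusted p = 0.037) was lost without any 1 of 5 of the 6 libraries, with adjusted p of 0.0501 to 0.19.

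The difference between substrates changed with time for 2 of 9 genes, against 0.226% of all tested genes. Cnn2 (interaction log2 0.44 ± 0.09, edgeR adjusted p = 0.0097) and Tpm1 (0.35 ± 0.07, 0.009) were further below the stiff level on soft substrates at 24 h than at 48 h. Neither call held without soft library 2 at 48 h (0.13 and 0.078), and that of Cnn2 was also lost without soft library 3 at 24 h (0.062) or stiff library 1 at 48 h (0.058). Time and pool coincided on soft substrates, and on stiff substrates they did so for all but 1 library at 48 h. The pool term left 2 to 7 of 9 genes called on soft and 8 to 9 on stiff substrates for the change with time. On soft substrates the term rested on libraries of other groups. Within the soft groups compared, time and pool could not be told apart.

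Of 12 further genes listed for smooth muscle, 2 were lower on soft than on stiff substrates at 24 h, against 2.52% of all tested genes. The median log2 over the 12 was -0.29. At 48 h, 1 was lower in serum + LIF (0.333% of all, median -0.17), 1 in serum alone (2.77%, median -0.11, and 1 higher), 4 in serum + PD03 (3.42%, median -0.51) and 4 when LIF was present as well (4.82%, median -0.49). Medians over all tested genes lay between -0.0028 and 0.0103. Cald1, the actin-binding caldesmon, had the highest median of the 12, at 244 CPM, and was lower in all 5 (log2 -0.43 to -0.82). Lmod1, an actin nucleator of smooth muscle, was lower in the media with PD03 (log2 -0.88 and -1.19), as was Itga8 (-0.63 and -0.62). Myocd was lower at 24 h (log2 -1.71), Synpo2 in serum + LIF + PD03 (-0.78) and Ldb3 in serum + PD03 (-1.05), while Hhip was higher in serum (1.15). Myh11, Smtn, Des, Mylk and Kcnmb1 were called in none of the 5, and of these Myh11, Mylk and Kcnmb1 had medians of 0.694, 0.672 and 0.323 CPM, where the counts limit what can be detected. With PD03, 5 to 7 of the 12 were higher and 1 to 3 lower, against 27.8% to 29% of all tested genes higher.

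Among 28 relatives in the cytoskeleton, 20 were lower on soft substrates at 24 h, against 2.52% of all tested genes (median log2 over the 28 of -0.26). At 48 h, 3 were lower in serum + LIF (0.333% of all, median -0.07), 16 in serum alone (2.77%, median -0.25), 16 in serum + PD03 (3.42%, median -0.23) and 19 when LIF was present as well (4.82%, median -0.28). None was higher in any of the 5, and the medians over all tested genes are those given for the smooth muscle genes. Among those that passed in at least 3 comparisons, Flnc, the muscle filamin, had the largest mean change over the 5 (log2 -1.09), followed by Lpp (-0.71), Tgfb1i1 (-0.64) and Zyx (-0.55), which encode proteins of focal adhesions. Flnc and Lpp passed in all 5, and Zyx and Tgfb1i1 in 4.

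Srf, which encodes the factor that binds the CArG box, and its coactivators Mrtfa and Mrtfb passed the test in none of the 5 comparisons of soft with stiff substrates. Their mean log2 fold changes over the 5 were -0.01 for Srf, -0.08 for Mrtfa and -0.07 for Mrtfb.

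Across the 11 groups, the genes whose mean log2 CPM was most like that of each contractile gene are given as a description, with Pearson correlations that share libraries, pools and the effect of PD03. Acta1 was closest to the keratins Krt18 (r = 0.994 over 11 group means) and Krt8 (0.994), and Acta2 to Wls (0.995). Tagln was closest to Pmp22 (0.997), Tagln2 to the alpha catenin gene Ctnna1 (0.972), Cnn1 to Ehd2 (0.959) and Cnn2 to the myosin gene Myo1c (0.986). Myl9 was closest to Limch1 (0.987), Tpm1 to Ptpn14 (0.989) and Tpm2 to Sema3c (0.984). Among the contractile genes, correlations over the group means ran from 0.493 (Cnn1 with Myl9) to 0.9795 (Tagln with Tpm2). Acta1 and Acta2 correlated at 0.960 and Acta1 and Cnn1 at 0.682.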

How the data were processed

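RNA was sequenced from 36 libraries of mESCs. According to the labels and the study's methods, libraries were made with a NuGen kit, and the authors aligned reads to GRCm38 (mm10) with STAR 2.5.2a and counted them per gene with HTSeq. The deposited values are raw counts per Ensembl gene for 49671 genes, of which 13380 had no count. How multi-mapping reads and strand were treated is not given in the sources used here. Columns carried group names without replicate numbers, so a library number is only a name.

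Genes and lists were chosen with earlier results of these data known. All 10 genes are named. Of the lists, all smooth muscle genes are named, and of the cytoskeletal relatives up to 4, by mean change, that were past the threshold in at least 3 of 5 comparisons of soft with stiff substrates. Markers of other cell types were named after their values were seen. Srf, Mrtfa and Mrtfb were named after their values were seen, and the rest of a list of regulators is not reported here. Counts were filtered (filterByExpr by group, 17702 genes kept with 99.92% of counts), scaled by TMM and fitted in edgeR 4.0.16 (R 4.3.3) by a quasi-likelihood model with 1 coefficient per group. Each comparison was a contrast, with Benjamini-Hochberg adjustment over 17702 genes and a threshold of 0.05. CPM used TMM-scaled totals. Fold changes are log2 with the SE of the fit. Coordinates came from GENCODE M21, and CPM per kb used the union of exons.

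Library totals of 10405696 to 26635239 counts set the precision, which for Actg2 and other genes near 1 CPM was limited by counting. Each of the 45 replicate pairs differed by more than sampling noise (chi-square of 2.22 to 13.4 per gene, over genes holding 50 counts or more). Counts were simulated for 17133 genes (soft against stiff, serum, 48 h), with changes set only in genes averaging more than 50 counts. No pool effect was simulated. Of the changed genes, 99% of those changed by a log2 of 1 and 100% of those changed by 2 were recovered, with 15 false calls. Recovery at lower counts was not tested. Alternatives were DESeq2 1.42.0, its size factors in edgeR, no filter, the compared groups alone, a pool term and leaving out each library.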

Additional observations from a re-analysis of the deposited data

Results flagged for a closer look

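In soft serum + PD03, the only group of 6 libraries, 1 library of Tpm1 lay apart from the others, at 269 CPM beside 253 to 259 CPM in the other 5. About 1 in 20 groups is picked out in this way by chance, and 9 genes were examined.

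Differences between the hydrogels in the response to PD03 with LIF, each tested as an interaction in the edgeR fit, picked out 7 genes. The log2 interaction was -1.44 for Cnn1, -1.13 for Acta2, -0.97 for Tagln, -0.60 for Tpm2, -0.56 for Tagln2, -0.53 for Cnn2 and -0.36 for Tpm1, and in each the rise was smaller on soft substrates. The difference between hydrogels in the change from 24 h to 48 h picked out Cnn2 (0.44) and Tpm1 (0.35). With the pool term, the 7 interactions with PD03 passed under each of the 45 assignments, that of Cnn2 with time under 12 and that of Tpm1 under 10. The term was a weak test of the 7, since on each hydrogel the groups compared nearly or wholly shared a pool.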

How the results depend on the processing

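Of the counts of called genes under the alternatives, 271 were within 1.5 times the reported count and 32 were not. Of the single values, 1587 kept their direction and side of the threshold, 82 lost the call, 8 gained it and 22 changed sign. The cause of these changes was not tested.

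With the pool term, the fewest calls over the assignments were 0 for soft against stiff in serum + LIF at 48 h, 4 in serum, 4 for soft against plastic, 2 for LIF on stiff substrates, 2 for the change with time on soft substrates, 0 for stiffness by time and 0 for the order of plastic, stiff and soft, and the most was 1 for LIF with PD03 on soft substrates. Without the filter, LIF with PD03 gave 1 call on soft and 2 on stiff substrates, stiffness by LIF gave 1 and stiffness by time 5. With only the compared groups, LIF with PD03 on stiff substrates gave 6 and stiffness by time 1. DESeq2 gave 1 for stiffness by LIF and 5 for stiffness by time. With 1 library left out, calls ranged from 1 to 3 for soft against stiff in serum + LIF at 48 h, 2 to 5 for LIF on stiff substrates, 0 to 1 for LIF with PD03 on either substrate, 0 to 3 for stiffness by LIF, 0 to 4 for stiffness by time and 1 to 3 for the order.

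Values that changed sign were all uncalled. In serum + LIF at 48 h, the pool term moved the log2 fold change of soft against stiff to -0.14 for Tagln2, 0.21 for Cnn1, 0.19 for Cnn2, -0.086 for Myl9 and 0.046 for Tpm2. Cnn2 was at 0.0087 with the size factors of DESeq2 and with DESeq2 itself, and at 0.019 without the filter. The pool term gave 0.14 for Myl9 in serum, 0.035 for Tagln2 against plastic on soft substrates and 0.32 for Cnn1 from 24 h to 48 h on soft substrates. With 1 library left out, the ranges were -0.046 to 0.11 for Tagln2 and -0.077 to 0.11 for Cnn2 in serum + LIF, -0.099 to 0.067 for Myl9 in serum, and -0.038 to 0.32 for Cnn1 on adding PD03 to serum + LIF on soft substrates. No paired analysis was possible because the columns carry no replicate number.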
